A study of Sus scrofa with 12 samples.

Results

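Frozen-thawed boar sperm held 1884 genomic regions with an m6A peak in each of the 3 frozen-thawed samples and in none of the 3 fresh samples. They were selected on exactly that pattern. The intervals of the 6 deposited peak lists were merged wherever they overlapped by at least 1 bp, whatever their strand, and a merged region was kept when it held a peak of Fts1, Fts2 and Fts3 and none of Fs1, Fs2 or Fs3, with no minimum score. Of 29695 merged regions in all, 6.34% met this rule. The mirror pattern, a peak in all 3 fresh samples and in no frozen-thawed sample, was met by 1101 regions (3.71%). Since the rule uses the contrast between the groups, the difference between fresh and frozen-thawed sperm in these regions is how they were chosen and is given as a description without a test.

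The samples came from 3 Duroc boars. Ejaculates were split, and 1 part was put into liquid nitrogen at once (fresh sperm, Fs). The other part was cryopreserved before its RNA was taken (frozen-thawed sperm, Fts): it was cooled to 17 °C, put into a lactose and egg yolk extender, cooled to 4 °C, given extender with 6% glycerol, held over nitrogen vapor at about -130 °C for 15 min and plunged into liquid nitrogen. Both groups were washed free of seminal plasma and treated with Triton X-100 to lyse somatic cells before RNA extraction. No strain, allele or drug differed between them, and the labels do not state the boars' ages or which ejaculates make up a sample. Each of the 6 samples gave an immunoprecipitated (IP) and an input library, 12 libraries in all, and the peak lists of the 6 IP libraries are the data used here. The labels do not say that samples 1 to 3 of a group stand for separate boars, so p-values measure only the spread between these samples, which may be technical.

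N6-methyladenosine (m6A) is the most common internal modification of mRNA. A writer complex around METTL3 and METTL14 places it mostly within the motif RRACH (R is A or G, H is A, C or T), FTO and ALKBH5 can remove it, and reader proteins such as those of the YTH family bind it and influence splicing, translation and decay. In methylated RNA immunoprecipitation sequencing (MeRIP-seq), fragmented RNA is pulled down with an antibody against m6A, and a peak is a stretch with more IP reads than the input library of the same sample accounts for. Mature sperm carry RNA left over from spermatogenesis and make little or none of their own, and ejaculates also hold RNA of the ducts and glands. A peak therefore needs both a methylated and a sufficiently abundant transcript, and its absence from a list may come from either. Input expression values were not analysed here, and in bulk samples fewer cells of a type and less RNA per cell cannot be told apart.

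The coding parts of the 12 highest-scoring Fts-only regions, taken 1 per gene, show what was pulled down. The sequences are from the RefSeq assembly Sscrofa11.1, on the transcript strand, 5′ to 3′, and cover the bases that the peaks of all 3 frozen-thawed samples share within 1 coding exon of the longest coding transcript. Stretches over 200 bases are cut to their central 200 bases. Capitals mark each RRACH match on that strand.
NCL, chr15:132171076-132171275, - strand: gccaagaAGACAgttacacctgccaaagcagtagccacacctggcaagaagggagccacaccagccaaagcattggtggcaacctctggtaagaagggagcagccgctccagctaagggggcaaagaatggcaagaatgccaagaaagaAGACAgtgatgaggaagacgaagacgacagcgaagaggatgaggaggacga
AWN, chr14:132246462-132246649, + strand: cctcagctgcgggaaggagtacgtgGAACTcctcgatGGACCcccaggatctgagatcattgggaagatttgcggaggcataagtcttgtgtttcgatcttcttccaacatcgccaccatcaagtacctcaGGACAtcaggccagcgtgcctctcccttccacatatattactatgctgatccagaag
SPMI, chr14:132321518-132321563, - strand: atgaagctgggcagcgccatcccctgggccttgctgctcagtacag
MCM2, chr13:72644025-72644224, - strand: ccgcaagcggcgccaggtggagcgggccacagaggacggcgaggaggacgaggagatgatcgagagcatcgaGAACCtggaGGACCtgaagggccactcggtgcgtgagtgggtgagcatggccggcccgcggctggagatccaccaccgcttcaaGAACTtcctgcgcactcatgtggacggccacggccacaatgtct
EEF1A1, chr1:92424323-92424522, + strand: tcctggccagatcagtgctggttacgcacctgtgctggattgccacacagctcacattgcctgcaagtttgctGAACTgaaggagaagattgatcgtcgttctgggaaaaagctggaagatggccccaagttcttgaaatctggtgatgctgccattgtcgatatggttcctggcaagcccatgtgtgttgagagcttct
RPS6, chr1:203447244-203447401, + strand: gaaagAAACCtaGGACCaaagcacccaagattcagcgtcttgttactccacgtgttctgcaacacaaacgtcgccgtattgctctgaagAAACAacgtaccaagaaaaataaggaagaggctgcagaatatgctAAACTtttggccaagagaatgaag
SPECC1, chr12:59541641-59541819, - strand: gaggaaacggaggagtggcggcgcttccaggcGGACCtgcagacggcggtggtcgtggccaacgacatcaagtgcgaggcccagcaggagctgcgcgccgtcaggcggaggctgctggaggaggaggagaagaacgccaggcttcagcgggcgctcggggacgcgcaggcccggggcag
PTMA, chr15:132360669-132360716, + strand: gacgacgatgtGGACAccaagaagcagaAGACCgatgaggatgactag
EHBP1, chr3:78915159-78915232, - strand: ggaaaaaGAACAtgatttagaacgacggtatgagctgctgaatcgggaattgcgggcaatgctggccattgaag
ASIC2, chr12:42021209-42021288, + strand: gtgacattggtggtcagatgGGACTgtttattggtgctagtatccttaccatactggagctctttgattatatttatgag

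Among these 10 stretches, SPMI alone held no RRACH match, and its 46 bases begin at the annotated start codon. ASIC2 alone held GGACT, the form of the motif often given as the strongest. PTMA ends at its stop codon, and the rest of its region lies in the 3'UTR. The other members of the 12 were TPT1, with 3 coding bases, and BSP1, with none. A motif match is a description of the letters in a window and not a mapped m6A site.

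The value behind each peak is the authors' MACS score, 10 times -log10 of the p of IP against input, in which 13.01 stands for p 0.05 and 20 for p 0.01. Many of the highest peaks carry exactly 3100, so the score has a ceiling there or close to it and does not rank them. In NCL, nucleolin, the region filled exon 3 of 14 (487 bp) and scored 1948 in Fts1, 2504 in Fts2 and 2367 in Fts3. MCM2, a subunit of the replicative helicase, had its region on the whole of exon 4 of 16 (261 bp), with scores of 1682, 3100 and 3100. PTMA, prothymosin alpha, had a region over the last exon (774 bp), of which 48 bp are coding, and scored 2771, 3100 and 3100. All 3 frozen-thawed samples stood far above the score of p 0.01 in each of these regions, and the nearest fresh peak lay 361 bp from the NCL region, 17583 bp from that of MCM2 and 71894 bp from that of PTMA.

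Parts of the translation machinery, EEF1A1 and RPS6, and the translationally controlled TPT1 were also among the 12. For EEF1A1, the elongation factor that brings aminoacyl-tRNA to the ribosome, the region spanned 1107 bp over exons 7 and 8 of 8 and scored 3100 in Fts1, 3100 in Fts2 and 1385 in Fts3. RPS6, a protein of the small ribosomal subunit, scored 1385, 2349 and 2431 over exons 5 and 6. TPT1, whose mRNA is itself under translational control, scored 2190.1, 3100 and 3211 in a region that starts with exon 6 and runs past the annotated end of the transcript. No fresh sample had a peak anywhere on EEF1A1 or RPS6.

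Genes of seminal plasma proteins supplied AWN, SPMI and BSP1. AWN, a spermadhesin that coats boar sperm, scored 3100, 3100 and 1735 in a region over exon 4 of 5. SPMI, a spermadhesin named for inhibiting sperm motility, scored 1647, 2689 and 1732 at its first exon. BSP1, a binder of sperm protein, scored 2976, 3100 and 1410.2 in a region that holds 179 bp of the annotated exon 5, all of it 3'UTR, and runs on past the gene. Fts3 was the lowest of the 3 samples in AWN, BSP1 and EEF1A1, whereas Fts1 was the lowest in PTMA, TPT1, NCL, EHBP1, MCM2, SPMI, SPECC1 and RPS6.

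The remaining 3 regions of the 12 were SPECC1 (cytospin-B), with scores of 1539, 3100 and 3100, EHBP1, an adaptor between endocytic vesicles and actin, with 1895, 2323 and 2768, and ASIC2, an acid-sensing ion channel subunit, with 3100 in all 3 samples. The ASIC2 and EHBP1 regions overlapped 80 bp and 74 bp of the RefSeq exons and otherwise lay outside them. Of the 1884 regions, 104 overlapped no mRNA exon on their strand, 17 of which lay on an exon of the other strand, and 44 lay on unplaced scaffolds. The highest-scoring of those without an exon, a 186 bp region on chromosome Y, stood at 3100 in all 3 samples.

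**Figure D1:**
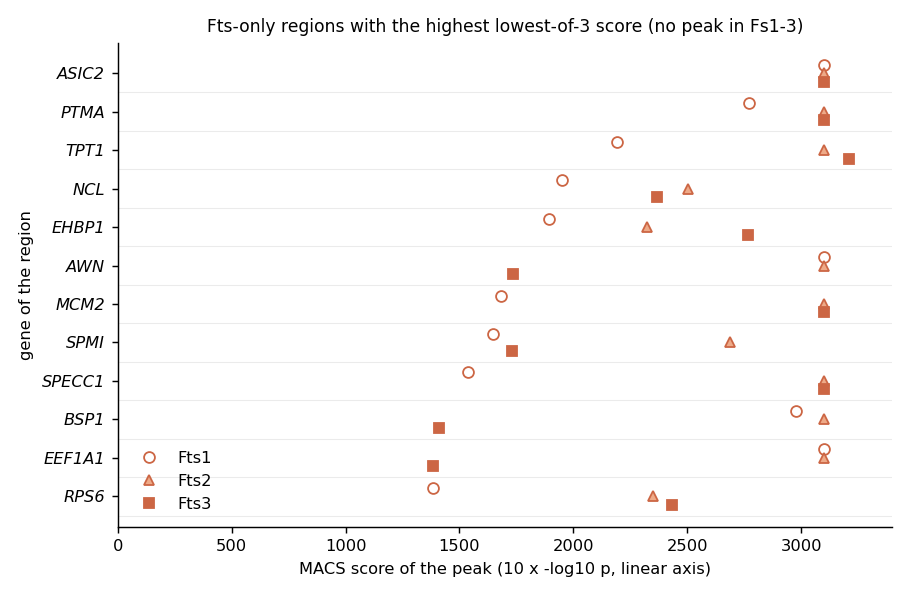
MACS scores (10 times -log10 p, linear axis) of the 12 Fts-only regions with the highest lowest-of-3 score, 1 point per frozen-thawed sample. ASIC2 stands at 3100 in all 3 samples, and the lowest point of the 12 regions is that of RPS6 in Fts1, at 1385. No fresh sample has a peak in any of them.

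Most regions scored far lower. In Fts1 the scores of the 1884 regions ran from 3.02 to 3100 with a median of 20.0, in Fts2 from 3.02 to 3206 with a median of 35.4, and in Fts3 from 3.02 to 3211 with a median of 33.6. The medians over every peak of the same samples were 12.9, 15.9 and 13.4, and in the 1042 regions with a peak in all 6 samples they were 38.8, 38.1 and 45.5. Fts2 held the highest score in 870 regions, Fts3 in 691 and Fts1 in 323. Spearman's correlation between the scores of 2 frozen-thawed samples over these regions was 0.645 for Fts1 and Fts2, 0.602 for Fts1 and Fts3 and 0.714 for Fts2 and Fts3, as a description, since the regions were kept for having a peak in all of them.

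The lowest of the 3 scores had a median of 12.3 in the Fts-only and 7.22 in the Fs-only regions. All 3 peaks reached a score of 20 in 714 of the Fts-only regions (37.9%) and in 188 of the Fs-only regions (17.1%). A score of 50 in all 3 was reached by 398 (21.1%) and 66 (5.99%) regions, and a score of 1000 by 24 and 2 regions. The frozen-thawed set was thus larger and held more high scores than its mirror, while about as many of its regions rested on at least 1 peak below the score of p 0.05 as did not: 920 (48.8%) reached 13.01 in all 3.

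At the edge of the rule, 4 members had a lowest score of 3.02. They included a 276 bp region in the last exon of KMT2A, a histone H3 lysine 4 methyltransferase, with 15.6 in Fts1, 12.9 in Fts2 and 3.02 in Fts3. INTU, a planar cell polarity effector, had 3.02, 23.4 and 30.7, and FBXL13, an F-box protein just above them, had 8.11, 8.19 and 3.03. Just outside stood GYS2, liver glycogen synthase, whose region scored 12.3, 10.9 and 15.3 in the frozen-thawed samples and 3.02 in Fs1, and ARSJ, arylsulfatase J, with 6.28, 3.83 and 7.06 and a peak of 3.02 in Fs3. In all, 570 regions had peaks in all 3 frozen-thawed samples and in 1 fresh sample, with a median fresh score of 8.52 and 365 of them below 13.01, and 3233 had peaks in 2 frozen-thawed samples and no fresh sample.

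**Figure D2:**
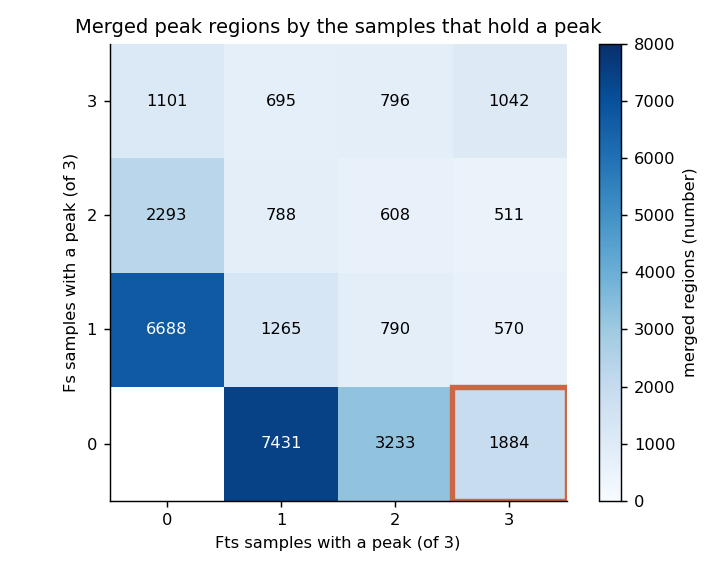
Number of merged regions by how many of the 3 fresh samples (vertical axis) and of the 3 frozen-thawed samples (horizontal axis) hold a peak. The outlined cell is the 1884 Fts-only regions, which exceed the 1101 Fs-only regions in the opposite corner and the 1042 regions of all 6 samples.

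The lists differed in length, with 8015, 10378 and 10335 peaks in Fs1, Fs2 and Fs3 and 9682, 11510 and 11982 in Fts1, Fts2 and Fts3, and peak calling depends on the read depth of IP and input, which the lists do not carry. With the same number of peaks from every list, the 8015 of highest score, 1419 regions were Fts-only, 1344 of which overlapped an Fts-only region of the full lists, and 1103 were Fs-only. The peaks inside Fts-only regions made up 19.6%, 16.5% and 15.8% of the peaks of Fts1, Fts2 and Fts3. Scores at or over 3100 were given to 12, 14 and 14 peaks in the fresh and to 35, 70 and 39 peaks in the frozen-thawed samples, of which 7, 26 and 13 lay in Fts-only regions.

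The same pattern was then read 3 times, each time in samples that had no part in choosing the regions of that reading. Regions were chosen from 2 fresh and 2 frozen-thawed samples by the same rule, and the samples of the remaining number were read in them. Without the samples numbered 1, 3687 regions were chosen, and 55.8% of them had a peak in Fts1 against 7.21% in Fs1. Without those numbered 2, 71.5% of 2940 regions had a peak in Fts2 against 10.5% in Fs2. Without those numbered 3, 66.9% of 3090 regions had a peak in Fts3 against 8.16% in Fs3.

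The mean share was 64.8% ± 8.05 in the held-out frozen-thawed and 8.63% ± 1.70 in the held-out fresh samples (SD, n = 3), which differ by 56.1 ± 6.59 points, the frozen-thawed share being higher in 3 of 3 pairs (two-sided exact sign-flip permutation test, p = 0.25, the smallest that 3 pairs allow). As a base, between 24.6% and 31.2% of the regions with a peak in any of the other 4 samples also had one in the held-out fresh sample, and between 29.4% and 36.6% had one in the held-out frozen-thawed sample. Regions chosen as Fs-only from 4 samples had a peak in 62.2% ± 10.2 of cases in the held-out fresh and 14.8% ± 2.38 in the held-out frozen-thawed sample, a difference of -47.4 ± 8.61 points (p = 0.25, same exact test). Both patterns thus recurred in every held-out pair, at a number of samples that cannot reach p 0.05. The 3 readings are not independent. Each sample also helped to choose the regions in the other readings. Apart from changes in the merge, the 1884 Fts-only regions were chosen in every reading and had a peak in its held-out frozen-thawed sample. They make up most of the 2059, 2102 and 2068 chosen regions with such a peak. The SD and p do not account for this overlap.

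On the RefSeq annotation, 1780 Fts-only regions overlapped an mRNA exon on the same strand, in 1336 genes, which is 11.5% of the 11645 genes with any peak region. Fs-only regions were found in 907 genes (7.79%), and 85 genes had both kinds. Of the 1336 genes, 1055 had 1 Fts-only region, 199 had 2 and 82 had 3 or more, whereas only 2 genes had 3 Fs-only regions and none had more. Regions were not independent of each other within a gene: those that met across an exon junction of 1 transcript were counted apart, and joining them left 1748. In 508 of the 1336 genes (38.02%) no fresh sample had a peak anywhere on the gene, while in the other 828 a fresh peak lay elsewhere on it. Of the 907 genes with an Fs-only region, 385 (42.4%) had no frozen-thawed peak anywhere. A fresh peak within 100 bp was found for 8 of the 1884 regions (0.425%), and none touched.

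FN1, fibronectin, a glycoprotein of the extracellular matrix and of body fluids, had the most Fts-only regions. Its 21 regions each lay in the coding sequence and on a different exon of the 50, from exon 10 to exon 49, and 13 remained after joining across junctions. Over the whole gene Fs1, Fs2 and Fs3 had 1, 2 and 0 peaks and Fts1, Fts2 and Fts3 had 32, 31 and 27. Exon 47 carried the highest scores in Fts2 and Fts3, with 248, 1471 and 716 in the order of the sample numbers, and no RRACH match in its 126 bp. Exon 44 (467 bp, 11 matches) scored 335, 721 and 536, and exon 30 (90 bp) scored 21.0, 59.1 and 9.35. The regions therefore ran along most of the transcript rather than at 1 place, with a range of scores within each sample.

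Genes of the cell cortex were also among those with the most regions. SPTBN1, beta-spectrin of nonerythroid cells, had 9 regions, the highest on its 757 bp exon 16 with 556, 784 and 778 and 20 RRACH matches. AMOT, angiomotin, an actin-binding regulator of Hippo signalling, had 8, the highest on its 934 bp exon 3 with 955, 1722 and 1419.5 and the widest over the last exon (3821 bp, scores of 42.9, 141 and 148). All 3 frozen-thawed samples had more peaks than every fresh sample on both of these genes. The choice favours this order, since both were picked for having 8 or more Fts-only regions.

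The other genes with the most regions were CHD2, a chromatin remodeller, with 6, and, among those with 5 by their summed scores, TAX1BP1 (an autophagy receptor), MYO9A (an unconventional myosin), ERC1 (a scaffold of vesicle release sites), ST13 (a cochaperone of HSP70), BAZ2B (a bromodomain protein), CEP350 (a centrosomal protein) and HOOK3 (an adaptor of dynein). Their scores were lower. The highest lowest-of-3 score of a region was 14.6 in CHD2, 25.1 in CEP350 and 24.6 in HOOK3, and it reached 162 in TAX1BP1 and 142 in MYO9A. CEP350 was among these genes the one with the most fresh peaks elsewhere, 3, 5 and 4 in Fs1, Fs2 and Fs3 against 8, 12 and 11.

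**Figure D3:**
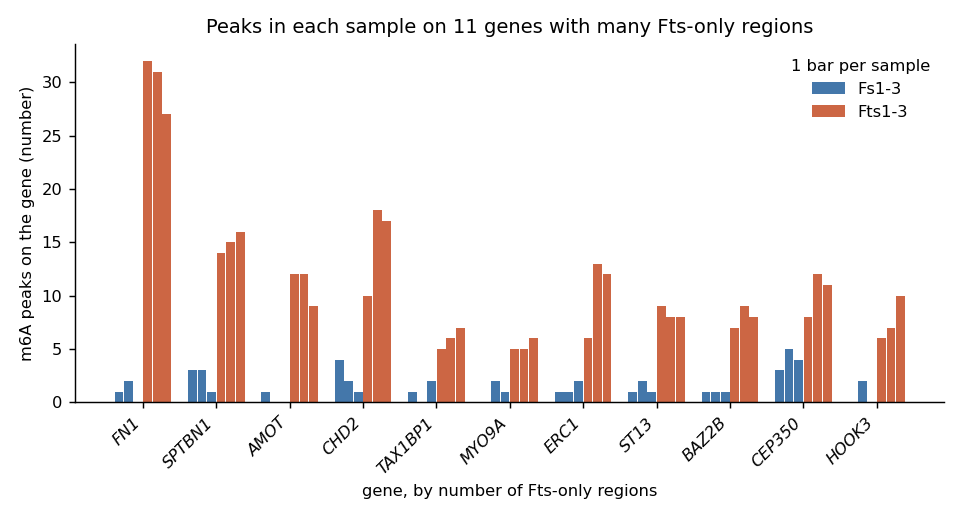
Number of m6A peaks in each sample on 11 of the 12 genes with the most Fts-only regions, 1 bar per sample in the order Fs1 to Fs3 and Fts1 to Fts3. FN1 has 1, 2 and 0 peaks in the fresh and 32, 31 and 27 in the frozen-thawed samples. The genes were chosen for their Fts-only regions, so the choice favours this direction and it is not evidence.

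Across gene lists, the share of genes with an Fts-only region is read against the 11.5% of all genes with any region, and the share with an Fs-only region against 7.79%. These are counts, no test was run on a list, and long or abundant mRNAs have more room for peaks. All lists were drawn up with earlier results of these data known, so a high or low share is not independent evidence. Chromatin remodelling and histone modifying enzymes had the highest Fts-only share of the lists drawn up from gene function. It was 24 of 40 genes (60.0%), with 45 regions. In 6 of the 40 (15%) there was an Fs-only region, 6 regions in all, so both shares were above those of all genes with any region. The chromatin list had a median of 1 Fts-only region per gene. Over all genes with any region, and in each of the other function lists, this median was 0. EP300, a histone acetyltransferase, had 4 regions with 0 peaks on the gene in every fresh sample and 5, 9 and 5 in the frozen-thawed samples. ASH1L, a histone H3 lysine 36 methyltransferase, had 3, and the one on its 95 bp exon 8 scored 465, 2269 and 1296. KMT2C had 4, and ARID1A, CHD4, CHD6, CHD9, EHMT1, KMT2A, SETD5 and SMARCC2 had 2 each.

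Chromatin genes also gave the widest coding region of all. In ASH1L, exon 4 was covered from end to end over 4546 bp, with 94 RRACH matches and scores of 126, 266 and 184. The next widest lay on NRIP1, a nuclear receptor corepressor (4076 bp, scores of 12.6, 48.4 and 7.98), ANKRD12, a nuclear ankyrin repeat protein (3793 bp) and AHNAK, a giant scaffold protein (3538 bp). In these 4 regions Fts2 had the highest score, and their exons ran from 4546 to 8459 nt.

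Actin and spectrin genes had an Fts-only region in 10 of 24 (41.7%) and an Fs-only region in 2 (8.33%). Besides SPTBN1, EZR, which ties actin to the plasma membrane, had a region on exon 9 with 617, 1746 and 726, and the nearest fresh peak was 203 bp away. The nonmuscle myosin MYH9 had 3 regions, the highest at 82.6, 242 and 227, and ACTN4, an actin crosslinker, had 3, at 79.2, 239.7 and 140.4 in the highest. The extracellular matrix list stood close to the background, at 4 of 26 genes (15.4%), and 21 of its 24 regions were those of FN1. COL5A2 and HSPG2 had 1 each, with no score above 15.7.

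RNA-binding, chaperone and translation genes had shares near 1 in 3 of their lists, with few or no Fs-only regions. Splicing factors and RNA-binding proteins had an Fts-only region in 13 of 35 genes (37.1%) and an Fs-only region in 2 (5.71%). HNRNPM had 3 and no fresh peak on the gene, with 293, 273 and 532 in the highest, and SRRM1, a splicing coactivator, had 3 with 240.2, 885 and 758. Translation factors had one in 7 of 19 (36.8%) and no Fs-only region. GSPT1, the termination factor eRF3a, scored 237, 1456 and 1327 at exon 4, whereas EEF2, the translocation factor, had 105, 3100 and 6.89, so that its samples differed more than most. Heat shock proteins and chaperones had one in 8 of 25 (32.0%) and no Fs-only region, among them HSPA4 with 3 regions (138, 245 and 335 in the highest), HSP90AB1 with 1 (334, 721 and 602) and DNAJB6 with 2 (377, 2867 and 124 in the highest).

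The genes of the m6A machinery stood at 5 of 19 (26.3%) with 6 Fts-only regions, and at 1 of 19 (5.26%) with 1 Fs-only region. HNRNPA2B1, a proposed m6A reader, had 2, and the one at its start codon scored 682, 1472 and 1069.9. The Fs-only region of the list lay on the same gene, which had 3, 2 and 2 fresh and 3, 3 and 4 frozen-thawed peaks. YTHDF3, a cytoplasmic reader, had 1 on its 1599 bp exon 6, at 265, 364 and 252, with no fresh peak on the gene. ZC3H13, a part of the writer complex, scored 5.82 in Fts1 but 411 and 465 in Fts2 and Fts3, METTL16, a separate m6A methyltransferase, scored 20.2, 10.8 and 30.9, and YTHDC1, the nuclear reader, 23.4, 36.0 and 42.7. METTL3, METTL14, FTO, ALKBH5 and YTHDF2 had no Fts-only region.

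Genes of energy metabolism and cell death had lower Fts-only and higher Fs-only shares than all genes with any region. Each share rests on few genes. Glycolysis, citrate cycle and lipid synthesis had an Fts-only region in 2 of 27 genes (7.41%) and an Fs-only region in 3. HK1, hexokinase, scored 40.6, 27.2 and 39.6 and PGAM1, phosphoglycerate mutase, 28.4, 7.41 and 31.2. Apoptosis genes had none in 16, and an Fs-only region in 2 (12.5%). Of 20 genes that the study itself took up, 7 of the 19 with any region (36.8%) had an Fts-only region. They were FOXO3, HIF1A, NCALD, PPP1R3B, SLC9A3R1, SORD and SOX9. The study chose the 20 genes on these samples, so their direction here is not independent evidence. It also measured some of the 20 by a separate MeRIP with quantitative PCR, which was not used here. For those it reports the same direction as its sequencing, except for FASN. An Fs-only region was found in 2 of the 19 (10.5%), FOXO3 and CARD6. The study lists CARD6 and PDE4A among its genes with raised methylation in frozen-thawed sperm, by a different measure. Here CARD6 had 3, 2 and 3 fresh and 2, 2 and 2 frozen-thawed peaks. PDE4A had 1, 1 and 0 fresh peaks and no frozen-thawed peak. FOXO3, a stress-responsive transcription factor, had 2 Fts-only regions and 1 Fs-only region. The Fts-only regions scored 99.1, 172 and 72.4 in the higher and 6.56, 3.1 and 6.55 in the lower. SORD, sorbitol dehydrogenase, had 1 Fts-only region, at 22.1, 40.5 and 38.5.

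Ribosomal protein and seminal plasma protein genes were grouped only after their values were seen. Of 69 cytosolic ribosomal protein genes with any region, 36 (52.2%) had an Fts-only region, 50 regions in all, and 0 had an Fs-only region. Fs1, Fs2 and Fs3 had 15, 10 and 8 peaks on them, in 13, 10 and 8 genes, and Fts1, Fts2 and Fts3 had 121, 128 and 95, in 62, 59 and 51 genes. Every frozen-thawed sample thus had more than 6 times as many peaks on them as the fresh sample with the most. RPS27 scored 1329, 2525 and 2290.0, RPL28 1363, 2557 and 913.5, RPL23 798, 1444 and 977, and RPL6 352, 1543 and 1329.8 in its highest region. Processed copies of these genes are numerous in mammalian genomes, so the assignment of their reads to a locus is uncertain.

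Of the 6 seminal plasma genes, 4 had 9 Fts-only regions and 0 Fs-only regions, and their fresh peaks were not spread evenly. Fs1 had 9 peaks on the 6 genes, Fs2 had 1 and Fs3 had 0, against 21, 18 and 20 in the frozen-thawed samples. PSP-I and PSP-II, the subunits of the main heterodimeric spermadhesin, had 3 and 5 peaks in Fs1, none in Fs2 and Fs3, and no Fts-only region. In Fts1, Fts2 and Fts3, PSP-I had 4, 2 and 3 peaks and PSP-II had 4, 3 and 4. SPMI had 4 Fts-only regions, on exons 1, 3, 4 and 5 of 5, the one on exon 3 with 1267, 3035 and 1092. AQN-1, another spermadhesin, had 2, and the one at its start codon scored 3100, 3100 and 389. The spermadhesin genes lie next to each other on chromosome 14 and resemble one another in sequence, so reads may be shared between them.

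Sperm and somatic marker genes were read the same way, since a peak list holds no expression values. Spermatid and sperm genes had an Fts-only region in 6 of 38 (15.8%) and an Fs-only region in 6 (15.8%). They had 49, 48 and 51 peaks in the fresh and 54, 59 and 58 in the frozen-thawed samples. The list held 6 Fts-only and 8 Fs-only regions. CFAP70, an axonemal protein, scored 273, 243 and 375 and CFAP44 scored 118, 298 and 35.8, both with fresh peaks elsewhere on the gene. ACR, with 2 Fs-only regions, and CATSPER3, with 1, had peaks in every fresh and in no frozen-thawed sample. The reverse held for CCDC40, with 1 Fts-only region, and for ZPBP, with none: each had peaks in every frozen-thawed and in no fresh sample. PRM1, TNP1, AKAP4, ODF1 and SMCP, which define late spermatids and sperm, had no peak in any sample. Leukocyte markers had no Fts-only region in 10 genes and 3 to 8 peaks in the fresh against 3 to 6 in the frozen-thawed samples, and CD14, ITGB2, LYZ, TYROBP, CSF1R and CD74 had no peak in any sample.

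Epithelial markers had an Fts-only region in 2 of 8 genes (25%) and no Fs-only region, with 2, 5 and 3 peaks in the fresh and 8, 9 and 10 in the frozen-thawed samples. KRT8, a keratin of simple epithelia, had 2 with no fresh peak on the gene, at 52.3, 113 and 95.3 in the highest, and KRT19 had 1, at 107, 171 and 172. EPCAM, CLDN3, CLDN4 and CLDN7 had no peak in any sample. Fibroblast, smooth muscle and endothelial markers had an Fts-only region in 2 of 12 (16.7%), MYH11 and CNN1, and an Fs-only region in 3 (25%). They had 15 to 19 fresh against 12 to 15 frozen-thawed peaks. Sertoli and Leydig cell markers had an Fts-only region in 1 of 9 (11.11%) and no Fs-only region. They had 3, 6 and 9 peaks in the fresh and 4, 4 and 3 in the frozen-thawed samples. The region lay on SOX9, a transcription factor also active outside the testis, at 41.2, 76.3 and 87.6 and with no fresh peak on the gene. The part that RNA of epithelial cells may have in the Fts-only regions was not tested.

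**Figure D4:**
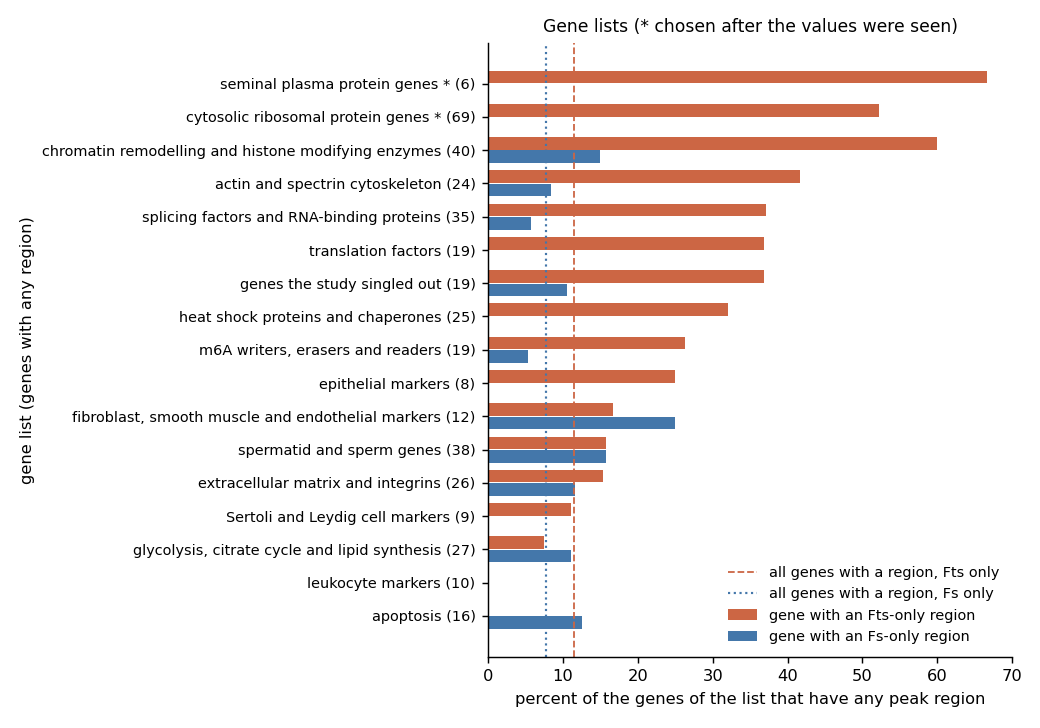
Percent of the genes of each list that have an Fts-only region (orange) or an Fs-only region (blue), of the genes of the list with any peak region, whose number is in parentheses. Dashed and dotted lines mark all genes with any region, 11.5% and 7.79%. Among the lists drawn up from gene function, chromatin enzymes reach 60.0% for Fts-only and 15% for Fs-only regions. Apoptosis genes stand at 0 for Fts-only regions. An asterisk marks lists grouped after the values were seen. The other lists were drawn up with earlier results of these data known.

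The rule did not use the place of a region on its transcript, its sequence or its shape. Of 1649 Fts-only regions whose midpoint lay on the longest coding transcript, 81.9% were in the coding sequence (CDS), 6.12% within 100 nt of the start codon, 2.61% in the 5'UTR, 3.52% within 100 nt of the stop codon and 5.88% in the 3'UTR. Of the 23836 merged regions placed in all, these shares were 75.4%, 8.20%, 4.47%, 4.04% and 7.93%. With the codon classes folded into their parts, CDS midpoints were 1.68 times, 5'UTR midpoints 0.436 times and 3'UTR midpoints 0.207 times as many as the length of those parts in the same transcripts gives. In the regions of all 6 samples the ratios were 1.37, 1.35 and 0.306, and in the Fs-only regions 1.48, 0.876 and 0.294. By their midpoints, the Fts-only regions thus lay more in the coding sequence and less at the 5′ end of the transcript than either of the other sets. Regions that meet across an exon junction count separately here. The median number of exons in the transcripts of the placed regions was 16 for Fts-only, 13 for Fs-only and 12 for all-6-sample regions. This was not adjusted for.

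**Figure D5:**
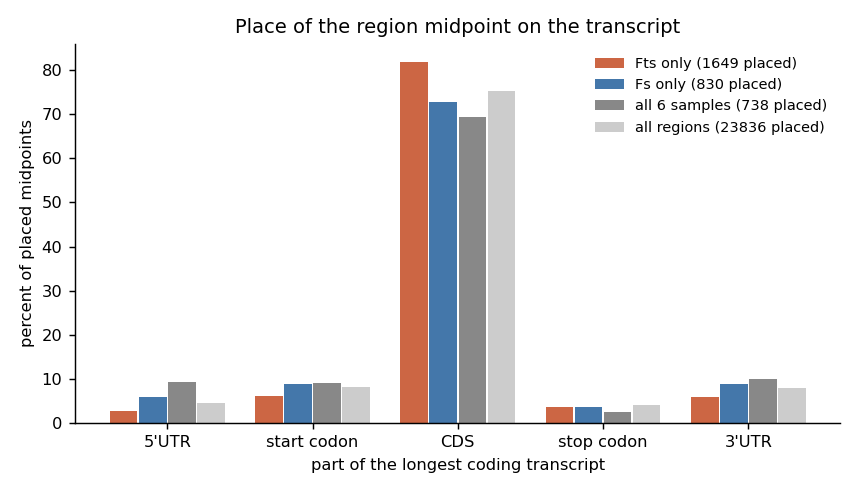
Percent of region midpoints in 5 parts of the longest coding transcript for the Fts-only, Fs-only and all-6-sample regions and for all merged regions. Start and stop codon classes reach 100 nt to each side. The Fts-only bar is the highest in the CDS (81.9%) and the lowest in the 5'UTR (2.61%).

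The regions followed exon borders. On genes, 92.4% of Fts-only regions had an end at an exon end (to within 1 bp) and 66.0% filled an exon from end to end, against 85.4% and 51.3% of all merged regions and 80.7% and 44.5% of the Fs-only regions. Their median length was 192 bp, with the middle 50% between 125 and 522 bp, compared with 168 bp in Fs-only regions, 274.5 bp in regions of all 6 samples and 166 bp overall. Internal exons of at least 400 nt held 11.8% of them against 9.21% of the regions of all 6 samples, 6.45% of all regions and 5.18% of the Fs-only regions. The median length of the exon was 181 nt in the Fts-only regions, below the 235 nt of the regions of all 6 samples and above the 174 nt of all regions.

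Their bases were also richer in A and T. The median GC content was 48.2% in Fts-only, 53.1% in Fs-only and 51.6% in all-6-sample regions. RRACH occurred at least once in 91.9% of Fts-only and 84.6% of all merged regions, a share that rises with length, and at 15.0 and 13.7 matches per kb. In a 100 bp window around the midpoint, so at equal length, RRACH occurred in 76.8% of Fts-only, 70.7% of Fs-only, 68.6% of all-6-sample and 73.9% of all regions, whereas GGACT occurred in 8.01%, 9.72%, 8.54% and 9.41%. The 2 motifs overlap, since every GGACT is an RRACH, and both were searched on the transcript strand only.

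These features were tested within samples, with the peaks of a frozen-thawed sample inside Fts-only regions set against its peaks in regions that also held a fresh peak. The CDS share was 82.2% against 72.4% in Fts1, 81.7% against 72.3% in Fts2 and 82.1% against 71.7% in Fts3, a mean difference of 9.87 ± 0.517 points (SD, n = 3). The share in the 5'UTR or at the start codon differed by -6.79 to -7.67 points in the 3 samples (mean -7.25 ± 0.439), and the median GC content by -2.04 to -2.92 points (mean -2.56 ± 0.459). A peak with an RRACH was more frequent by 5.93 to 6.15 points (mean 6.01 ± 0.119).

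The other features tested were the share in the 3'UTR or at the stop codon, with a mean difference of -2.61 ± 0.496 points, and the median exon length, 183 nt in all 3 samples against 201 to 210 nt. Each of the 6 features had the same direction in 3 of 3 samples, and each gave p = 0.25 (two-sided exact sign-flip permutation test, unadjusted and equal to 0.25 after Benjamini-Hochberg adjustment over the 6), the smallest p that 3 samples allow. By the rule the 3 samples share every Fts-only region, and so they repeat largely the same sequences. Their agreement, the SD and p therefore do not rest on 3 independent sets of regions. The exon length difference was 0.667 nt with the reverse sign when all other peaks of the sample served as the reference, and with a minimum score of 50 the 3'UTR difference was 0.12.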

How the data were processed

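MeRIP-seq was done on 3 fresh (Fs) and 3 frozen-thawed (Fts) sperm samples, each with an IP and an input library. The authors trimmed reads with cutadapt 1.9.3, aligned them to susScr11 with HISAT2, called peaks of each IP library with MACS against its input, and kept the peaks on mRNAs with a program of their own. The score column deposited by the authors is 10 times -log10 p of a peak. The peak lists hold no read counts, and the read numbers that the study gives for its libraries were not used here. A further deposited list holds the authors' own comparison of the groups and was not used. The input libraries' expression values were not analysed here.

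Peaks were merged in Python 3.11.15 with numpy 2.4.6, and figures were drawn with matplotlib 3.10.9. Regions were given to the gene whose mRNA exons on their strand they overlapped by at least 1 bp, the longest overlap first (RefSeq, Sscrofa11.1, Annotation Release 106). No peak interval ran beyond the end of a RefSeq sequence of the same name. Midpoints were placed on the longest coding transcript. Named were the 12 genes with the most member regions, the 12 regions with the highest lowest-of-3 score (1 per gene), the members of the gene lists, the lowest members and nearest non-members, and the 5 widest coding members. Some items that this rule names are not reported here. A region without a gene, the peaks of seminal plasma and ribosomal protein genes, and others singled out for a value were chosen after their values were seen. The members and lists were chosen with earlier results of these data known. Samples of equal number were used as pairs because the study split ejaculates, although the labels do not state that a number stands for 1 boar. The merge, the rule and the sign-flip test were tested on simulated data. Alternatives covered a minimum score of 20 or 50, the merge, distance from fresh peaks, equal list lengths, codon classes of 200 nt, the motif and its window, the reference peaks, the pairs and the omission of each pair.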

Additional observations from a re-analysis of the deposited data

How the results depend on the processing

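The number of Fts-only regions (1884) was within a factor of 1.5 when peaks were merged by strand (1883), when no fresh peak was allowed within 100 bp (1876), when bases covered by all 3 samples were counted (1912), after joining across junctions (1748) and with equal list lengths (1419). It was 915 with a minimum score of 20, 561 with a minimum score of 50 and 625 when the gene was to hold no fresh peak at all. Leaving out the samples of 1 number gave 2940 to 3687 regions (3687 without number 1, 2940 without 2 and 3090 without 3) in 2023 to 2341 genes, since fewer samples make the rule easier to meet. With a minimum score of 50, 429 genes had a region instead of 1336. In the held-out samples the difference of 56.1 points had p = 0.25 with equal-numbered samples as pairs and, without the replicate block, p = 0.1 (exact permutation of 3 against 3, the smallest it allows). It was 59.4 and 59.7 points with minimum scores of 20 and 50, and 57.2 with equal list lengths. Without 1 pair it ran from 53.7 to 59.9. The 3'UTR and stop codon difference of -2.61 points was 0.12 with a minimum score of 50, the exon length difference of -22.3 nt was 0.667 nt against all other peaks, and the motif difference of 6.01 points was -1.30 with GGACT in place of RRACH. The cause of these 3 reversals was not tested. The other within-sample differences kept their sign under each alternative run, but not their size. With a minimum score of 50 the GC difference went from -2.56 to -5.25 points, the motif difference from 6.01 to 9.21 points and the exon length difference from -22.3 to -8.5 nt, the last with p = 0.5 (exact sign-flip). With a minimum score of 20 the GC difference was -3.88 points, the 3'UTR and stop codon difference -1.75 points and the exon length difference -14.8 nt. Against all other peaks the 5'UTR and start codon difference went from -7.25 to -4.47 points.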
